A study of Mus musculus with 6 samples.

Results

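Components of the Gdf11 signalling pathway were measured in the tailbud of mouse embryos in which clearance of the orphan nuclear receptor Nr6a1 was overridden by a transgene. The genes were chosen by name, as the ligand Gdf11, the propeptide convertase Pcsk5, the antagonist Fst, the type II receptors Acvr2a and Acvr2b, the type I receptors Acvr1b and Tgfbr1, the receptor-regulated Smads Smad2 and Smad3, and the common partner Smad4. They are 10 of the 54134 genes in the count table, each matched by its symbol, and 10 of 10 passed the filter on low counts that left 12733 genes for testing. That filter asked for a count above 10 and more than 2 CPM, the count scaled to the total of its library, in at least 2 libraries.

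The tissue was all of the tailbud caudal to the last somite of C57BL/6 embryos labelled E10.5, although a heading in the study's source data gives an earlier stage. The 2 Cdx2P:Nr6a1 libraries came from transient transgenic embryos made by pronuclear injection, in which the Cdx2 promoter drives the coding sequence of the long isoform of Nr6a1. Each such embryo carries its own integration of the transgene, so the pair are not copies of 1 line. The 4 wildtype libraries came from injected embryos that did not carry the transgene, and each of the 6 libraries represents 1 embryo, so that replicates here are separate embryos.

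Gdf11 is a secreted ligand of the TGF-beta family that is made as a precursor, cut by proprotein convertases such as Pcsk5, and bound in the extracellular space by antagonists such as follistatin, the product of Fst. The free dimer brings type II receptors together with type I receptors, which phosphorylate Smad2 and Smad3, and these enter the nucleus with Smad4 to act on target genes. In the mouse tailbud Gdf11 is known for its part in the switch from trunk to tail formation, and embryos without Gdf11 or Pcsk5 have additional trunk vertebrae.

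The precursor is cut after a basic site, and the 60 bases of the Gdf11 coding sequence around it are shown because they mark where Pcsk5 and related enzymes act on the ligand. The site lies in exon 3 of 3, at chr10:128885412-128885471 on the minus strand of GRCm38. The capitals mark the 4 codons of the basic site, residues 293 to 296 of 405, which leave 109 residues after it for the mature ligand.
Gdf11 cleavage site: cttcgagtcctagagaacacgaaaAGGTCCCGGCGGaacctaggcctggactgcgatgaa

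The 250 bases before the annotated start are shown for Gdf11, the ligand, and for Pcsk5, the component with the largest fold change, as the stretches on which the search for motifs below turned for these 2 genes. They come from RefSeq (GRCm38.p6), from chr10:128891719-128891968 for Gdf11 and from chr19:17837633-17837882 for Pcsk5, both on the minus strand. The Gdf11 sequence had a GC content of 81.2% and the Pcsk5 sequence one of 64.0%.
Gdf11 upstream: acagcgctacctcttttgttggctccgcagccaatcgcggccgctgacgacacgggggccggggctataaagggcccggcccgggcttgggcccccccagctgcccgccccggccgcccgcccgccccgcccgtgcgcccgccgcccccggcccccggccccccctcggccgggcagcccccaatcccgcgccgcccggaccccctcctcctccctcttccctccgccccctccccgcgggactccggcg
Pcsk5 upstream: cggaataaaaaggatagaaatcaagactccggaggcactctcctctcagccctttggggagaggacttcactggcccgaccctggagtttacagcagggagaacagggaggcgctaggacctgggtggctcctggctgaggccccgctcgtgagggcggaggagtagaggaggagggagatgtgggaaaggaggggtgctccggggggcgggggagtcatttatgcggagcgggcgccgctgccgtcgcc

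RefSeq promoter windows of 300 bases, from 250 before to 50 after the start, matched 7 of the 10 genes in 8 windows, with no entry for Fst, Smad2 and Smad4. The direct repeat AGGTCAAGGTCA, the kind of sequence that Nr6a1 is known to bind, was searched on both strands and was in 0 of the 8 windows and in 2 of 32851 windows of all genes (0.00609%). The extended core site TCAAGGTCA, which overlaps that repeat, was in 0 of the 8 and in 139 of all windows (0.423%). The Smad palindrome GTCTAGAC was in 0 of the 8 and in 70 of all windows (0.213%). These counts describe only the letters of these windows.

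The library totals lay between 44073460 and 67183802 counts, with both extremes in the Cdx2P:Nr6a1 group. Correlations of log2 CPM between libraries of 1 group lay between 0.990 and 0.995. Summed expression of Y-linked genes was 209 CPM in wildtype replicate 3 and 180 CPM in Cdx2P:Nr6a1 replicate 2 and below 0.1 CPM in the other 4 libraries, so both groups held embryos with and without it. Of the 8 tailbud progenitor markers 8 were detected, led by the gene T at 886 to 1189 CPM, while Olig2 of the neural tube list was at 0 in all 6 libraries. Erythroid genes also contributed, at 8111 to 19555 summed CPM in wildtype and 9797 and 13530 in the Cdx2P:Nr6a1 libraries.

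Nr6a1 itself was raised in both transgenic embryos. It stood at 3.91, 5.18, 5.53 and 6.89 CPM in wildtype replicates 1 to 4 and at 23.4 and 33.8 CPM in Cdx2P:Nr6a1 replicates 1 and 2, a log2 fold change of 2.41 ± 0.20 (SE; adjusted p = 0.00133, edgeR quasi-likelihood test). A read of Nr6a1 may come from the transgene or from the endogenous locus, and the counts do not tell which.

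Against this change the log2 fold changes of the 10 pathway genes lay between -0.11 and 0.31. None was called at an adjusted p under 0.05, that is 0 of 10, where 203 of the 12733 genes tested passed (1.59%), of which 100 rose (0.785%) and 103 fell (0.809%). At an unadjusted p under 0.05 there were 2 of the 10, Pcsk5 and Smad4, beside 1342 of all genes tested. The same 2 genes had both Cdx2P:Nr6a1 values above every wildtype value, as 10.1% of all genes tested did, and 0 of the 10 had both values below every wildtype value, as 8.48% of all genes did. The median log2 fold change was 0.02 over the 10 genes and -0.00071 over all genes tested, with a median size of 0.08 and 0.06, respectively. In 3 alternative analyses (likelihood ratio test, DESeq2, or all genes kept whatever their count) 1 of the 10 genes was called, which was Pcsk5 each time. Because the tissue was sequenced in bulk, fewer cells of a type and less RNA per cell cannot be told apart for any of these genes.

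**Figure D1:**
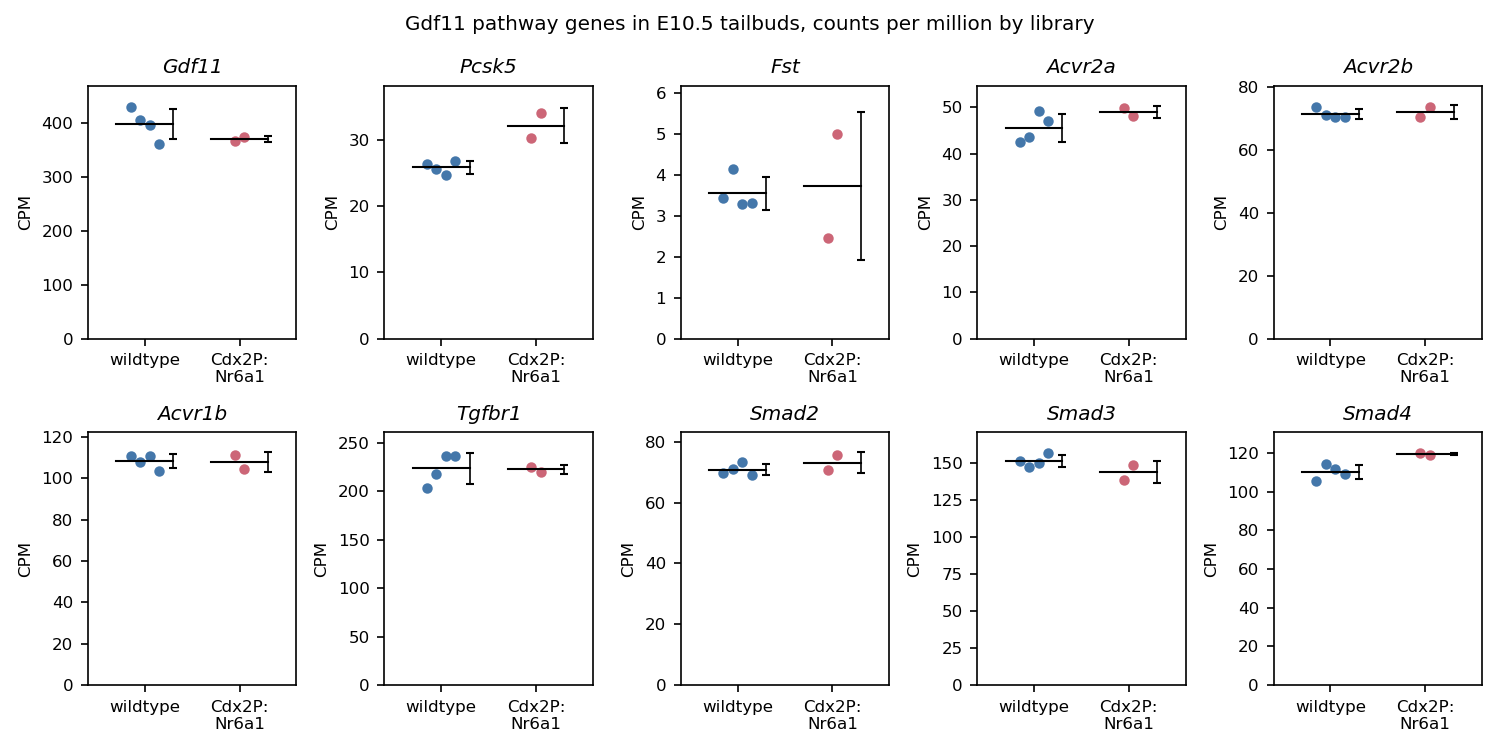
CPM of the 10 Gdf11 pathway genes in each library (points), with the group mean (line) and SD (bar), for 4 wildtype and 2 Cdx2P:Nr6a1 tailbuds on axes that start at 0. The groups are separate for Pcsk5 and Smad4 and overlap for the other 8 genes, and the 2 Cdx2P:Nr6a1 libraries lie on either side of the wildtype range for Fst.

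The ligand Gdf11 (chr10:128882295-128891718, minus strand) was the most abundant component. It was counted at 431, 406, 396 and 362 CPM in wildtype replicates 1 to 4 and at 367 and 375 CPM in Cdx2P:Nr6a1 replicates 1 and 2. Both Cdx2P:Nr6a1 values lay inside the wildtype range, near its lower end. The log2 fold change was -0.11 ± 0.07 (SE; adjusted p = 0.701, edgeR quasi-likelihood test), and its 95% interval placed the Cdx2P:Nr6a1 level between 83.0% and 103% of wildtype. The wildtype embryos themselves varied with a coefficient of variation of 7.17%. The fold change was -0.07 with wildtype replicate 1 left out and -0.16 with wildtype replicate 4 left out, so the difference from wildtype moved with single wildtype embryos by more than 1.5 times.

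Among the ligands that act through Smad2 and Smad3, Gdf11 made up most of the transcripts when levels were scaled to exon length. Its share of the summed CPM per kb of 10 genes was 88.7%, 87.8%, 87.6% and 84.6% in wildtype and 85.1% and 86.5% in Cdx2P:Nr6a1. These 10 were such ligands and the inhibin subunit Inha, at 1.57% to 2.71% of the sum. The next were the TGF-beta ligands Tgfb2, at 3.11% to 5.02% of the sum, and Tgfb3, at 3.21% to 4.25%. Mstn, the close relative of Gdf11 known as myostatin, was at 0 counts in all 6 libraries. Gdf1 was also at 0 and was left out of the sum, since 100% of its exon bases lie under those of Cers1 and its count is not informative.

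Profiles like that of Gdf11 across the 6 libraries were sought among all genes tested by the root mean square distance of centred log2 CPM. The nearest were Wwox at 0.0241, Neil1 at 0.0250 and Abhd2 at 0.0263, where the median distance over all genes was 0.126. With 6 libraries and so narrow a spread in Gdf11, these are the genes that varied as little and in the same embryos.

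Pcsk5 (chr19:17432832-17837632, minus strand), which encodes a convertase able to cut the Gdf11 precursor, had the largest fold change of the 10 genes. It was counted at 26.5, 25.6, 24.7 and 26.9 CPM in wildtype and at 30.4 and 34.1 CPM in Cdx2P:Nr6a1. Both Cdx2P:Nr6a1 embryos lay above all 4 wildtype embryos, which were close together with a coefficient of variation of 3.68%. The log2 fold change was 0.31 ± 0.07 (SE; unadjusted p = 0.00173, adjusted p = 0.0785, edgeR quasi-likelihood test), with a 95% interval from 111% to 139% of the wildtype level. The adjusted p was above 0.05 in this test and was 0.0346 in the likelihood ratio test, 0.0125 in DESeq2 and 0.0179 without a filter on low counts, within a range from 0.0125 to 0.396 over 15 alternatives. In an exact permutation test of this gene alone p was 0.0667, the smallest that 4 libraries against 2 can give.

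Among the other propeptide proteases 4 of 5 had values on the other side of 0 from Pcsk5. Of the 6 listed, 5 were tested and 0 were called, with 1 higher and 4 lower and a median log2 fold change of -0.14. Furin, the widely expressed convertase, was at 170, 145, 138 and 137 CPM in wildtype and at 141 and 119 CPM in Cdx2P:Nr6a1, with a log2 fold change of -0.19 ± 0.10 (SE). Tll2, a tolloid protease of the class that releases the ligand from its cut propeptide, was at 17.5 to 20.1 CPM in wildtype and at 16.8 and 17.1 CPM in Cdx2P:Nr6a1. Its 2 Cdx2P:Nr6a1 values lay below all wildtype values, with a log2 fold change of -0.18 ± 0.09.

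On the scale of CPM per kb, Furin made up the largest part of the 4 convertases Furin, Pcsk5, Pcsk6 and Pcsk7 in each library. The share of Pcsk5 was 9.56% to 10.9% in wildtype and 12.2% and 15.1% in Cdx2P:Nr6a1, and that of Furin was 56.6% to 62.3% and then 57.4% and 54.0%. The wildtype and Cdx2P:Nr6a1 shares of Pcsk5 did not overlap. These shares follow from the values above and were not tested.

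Fst (chr13:114452290-114458951, minus strand), which encodes the secreted antagonist follistatin, was the least abundant component and the most variable. It was counted at 3.44, 4.14, 3.29 and 3.31 CPM in wildtype, from 149 to 231 reads, and at 2.45 and 5.0 CPM in Cdx2P:Nr6a1, from 108 and 336 reads. Of the 2 Cdx2P:Nr6a1 embryos 1 lay below and the other above all wildtype embryos. The log2 fold change of 0.09 ± 0.25 (SE; adjusted p = 0.963) therefore averaged values on opposite sides of wildtype. Leaving out Cdx2P:Nr6a1 replicate 1 gave 0.50, and leaving out replicate 2 gave -0.54. The 95% interval, 71.9% to 157% of wildtype, was the widest of the 10 genes. Exons of Fst share 115 bases (2.51%) with those of Gm47040 on the opposite strand. The ratio of Gdf11 to Fst in CPM per kb was 142, 111, 136 and 123 in wildtype and 169 and 84.7 in Cdx2P:Nr6a1, so the ligand exceeded this antagonist in every embryo by a wide margin, and the log2 ratio differed by -0.09 (exact permutation test, two-sided, p = 0.8, adjusted p = 1 over 4 ratios).

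The summed markers of some cell types, among them ventral caudal mesenchyme and neural tube, were lower in Cdx2P:Nr6a1 replicate 1 than in replicate 2, as Fst was. Those of other cell types, given below, were higher in replicate 1. The summed level of the 4 markers of ventral caudal mesenchyme was 2.45 to 3.99 CPM in wildtype, 1.88 CPM in Cdx2P:Nr6a1 replicate 1 and 6.73 CPM in replicate 2, and 1 of the 4 passed the filter. Tbx4, which was named after its value was seen, was at 0.12 to 0.27 CPM in wildtype and at 0.27 and 1.68 CPM in Cdx2P:Nr6a1. No marker of this list was at 0. The summed neural tube markers were at 83.4 to 92.1 CPM in wildtype and at 82.2 and 104 CPM in Cdx2P:Nr6a1, also on either side of wildtype. Those of endothelium were at 184 to 239 CPM in wildtype and at 195 and 250 CPM in Cdx2P:Nr6a1, those of macrophages at 11.6 to 28.7 CPM and at 10.48 and 19.2 CPM, and those of erythroid cells are given above. Unlike Fst, the summed markers of tailbud progenitors were higher in Cdx2P:Nr6a1 replicate 1 (2788 CPM) than in replicate 2 (2342 CPM). So were those of presomitic mesoderm (1016 and 967 CPM), somite (27.0 and 23.4 CPM) and gut endoderm (290 and 252 CPM). The same held for notochord (69.3 and 56.8 CPM) and surface ectoderm (127 and 108 CPM). The part of any of these cells in the Fst values was not tested.

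The type II receptor genes were at similar levels in both genotypes. Acvr2a (chr2:48814109-48903269, plus strand) was counted at 42.6, 43.7, 49.2 and 47.1 CPM in wildtype and at 49.8 and 48.1 CPM in Cdx2P:Nr6a1, with 1 of the 2 above the wildtype range. Its log2 fold change was 0.10 ± 0.06 (SE; adjusted p = 0.732), with a 95% interval from 96.6% to 118% of wildtype, and it was 0.063 without wildtype replicate 1. The exons of Acvr2a share 446 bases (7.84%) with those of Orc4 on the opposite strand, so reads there may have been lost or misassigned if strand was not used in counting.

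Acvr2b (chr9:119402118-119434995, plus strand) was the least variable component in wildtype, with a coefficient of variation of 2.06%. Its values were 73.7, 71.3, 70.7 and 70.5 CPM in wildtype and 70.7 and 73.7 CPM in Cdx2P:Nr6a1. The Cdx2P:Nr6a1 values lay within the wildtype range. Its log2 fold change was 0.0072 ± 0.05 (SE; adjusted p = 0.982), and the 95% interval ran from 93.1% to 109% of wildtype.

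Per kb of exon, Acvr2b was more abundant than Acvr2a in every library. The ratio was 2.51, 2.36, 2.08 and 2.17 in wildtype and 2.05 and 2.22 in Cdx2P:Nr6a1, which overlapped. The log2 ratio differed by -0.09 (exact permutation test, two-sided, p = 0.467, adjusted p = 0.933 over 4 ratios). Tgfbr2, the type II receptor of the TGF-beta ligands themselves, made up 4.94% to 6.42% of the summed CPM per kb of the 3 type II receptor genes.

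The type I receptor genes also overlapped between genotypes. Acvr1b (chr15:101174067-101213684, plus strand), encoding the receptor also called Alk4, was counted at 111, 108, 111 and 103 CPM in wildtype and at 111 and 104 CPM in Cdx2P:Nr6a1. Of the Cdx2P:Nr6a1 embryos 1 lay just above the wildtype range and the other inside it. A log2 fold change of -0.01 ± 0.05 (SE; adjusted p = 0.973) had a 95% interval from 91.4% to 108% of wildtype.

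Tgfbr1 (chr4:47353222-47414931, plus strand), encoding the receptor also called Alk5, was the second most abundant component per kb. Counting gave 204, 218, 237 and 237 CPM in wildtype and 226 and 220 CPM in Cdx2P:Nr6a1. The Cdx2P:Nr6a1 embryos lay inside the wildtype spread, whose coefficient of variation was 7.07%. The log2 fold change was -0.01 ± 0.06 (SE; adjusted p = 0.974), and the 95% interval ran from 89.8% to 109% of wildtype.

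The ratio of Acvr1b to Tgfbr1 in CPM per kb was 0.804, 0.731, 0.693 and 0.646 in wildtype and 0.728 and 0.703 in Cdx2P:Nr6a1. The Cdx2P:Nr6a1 values fell in the middle of the wildtype values, and the log2 ratio differed by -0.00063 (exact permutation p = 1). Acvr1c, the third type I receptor of this branch, was below the filter and made up at most 0.0314% of the summed CPM per kb of the 3 genes.

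Smad2 (chr18:76241580-76305731, plus strand) and Smad3 (chr9:63646767-63757994, minus strand) encode the Smads that these receptors phosphorylate. Smad2 was counted at 69.8, 71.0, 73.4 and 69.1 CPM in wildtype and at 70.7 and 75.5 CPM in Cdx2P:Nr6a1, with a log2 fold change of 0.04 ± 0.05 (SE; adjusted p = 0.896). Smad3 was counted at 152, 147, 150 and 157 CPM in wildtype and at 139 and 149 CPM in Cdx2P:Nr6a1, with a log2 fold change of -0.08 ± 0.05 (SE; adjusted p = 0.710). For each of the pair 1 Cdx2P:Nr6a1 embryo lay inside the wildtype range, and the other lay above it for Smad2 and below it for Smad3. The 95% intervals were 94.9% to 112% of wildtype for Smad2 and 87.3% to 103% for Smad3. For Smad3 the log2 fold change was -0.023 when Cdx2P:Nr6a1 replicate 1 was left out and -0.14 when replicate 2 was.

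The balance of Smad2 to Smad3 within a library was the one of 4 ratios whose groups did not overlap. In CPM per kb it was 0.719, 0.752, 0.764 and 0.687 in wildtype and 0.796 and 0.791 in Cdx2P:Nr6a1. Both Cdx2P:Nr6a1 embryos lay above all wildtype embryos, by a difference of 0.12 in the mean log2 ratio. The exact permutation test gave p = 0.133 (adjusted p = 0.533 over 4 ratios), where 0.0667 is the smallest p that 15 arrangements allow, so the difference did not pass a test.

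**Figure D2:**
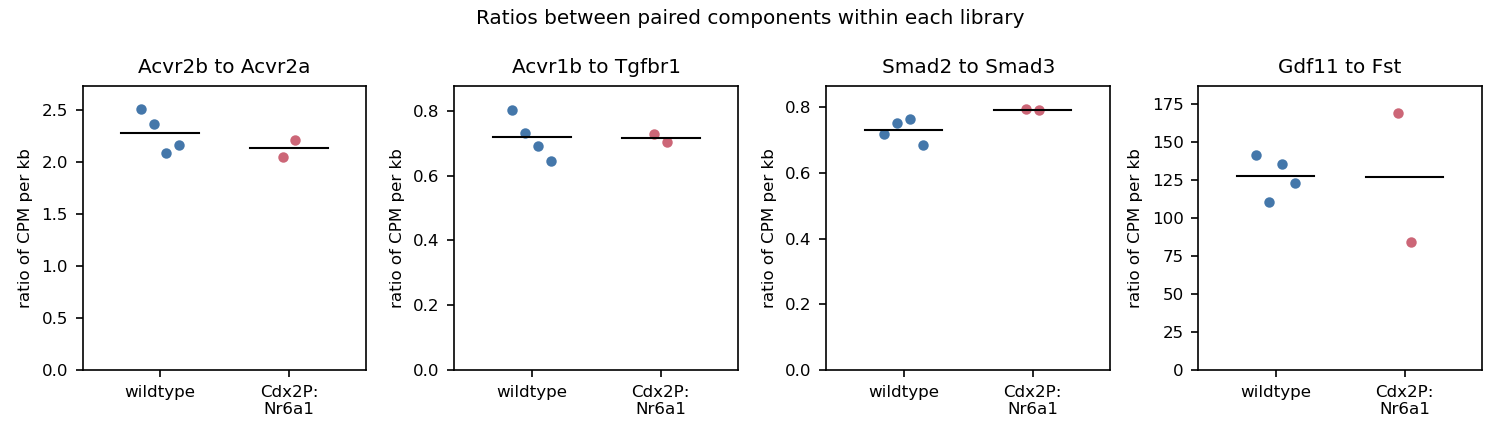
Ratios of CPM per kb between components of the same step in each library (points), with group means (lines), for 4 wildtype and 2 Cdx2P:Nr6a1 tailbuds. Smad2 to Smad3 is higher in both Cdx2P:Nr6a1 embryos than in all wildtype embryos, the receptor ratios overlap, and Gdf11 to Fst is at 169 and 84.7 in the Cdx2P:Nr6a1 embryos, on either side of wildtype.

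Smad4 (chr18:73639009-73703780, minus strand), the partner that the receptor-regulated Smads share with those of the BMP branch, was the other component whose groups were separate. Its level was 106, 114, 111 and 109 CPM in wildtype and 120 and 119 CPM in Cdx2P:Nr6a1. Both Cdx2P:Nr6a1 embryos lay above all wildtype embryos. The log2 fold change was 0.11 ± 0.05 (SE; unadjusted p = 0.0405, adjusted p = 0.434), and the gene was not called under any of the 15 alternatives. The 95% interval, 100.4% to 116% of wildtype, came close to no difference at its lower end.

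Levels of the 10 genes were compared with each other only per kb of exon. In wildtype they ran from 98.2 ± 7.04 CPM per kb for Gdf11 (SD, n = 4) to 0.772 ± 0.0872 for Fst. Between these lay Tgfbr1 at 34.3 ± 2.42, Smad4 at 29.7 ± 1.01, Smad3 at 27.3 ± 0.745, Acvr1b at 24.5 ± 0.802, Smad2 at 20.0 ± 0.524, Acvr2b at 18.2 ± 0.375, Acvr2a at 8.02 ± 0.534 and Pcsk5 at 2.77 ± 0.102 CPM per kb. The ranges over the 6 libraries overlapped between Tgfbr1 and Smad4 and between Smad3 and Acvr1b, and other neighbours in the order were separate. By level per kb in wildtype Gdf11 ranked 404th of the 12733 genes tested, above 96.8% of them, whereas Pcsk5 stood above 25.7% and Fst above 6.57%.

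**Figure D3:**
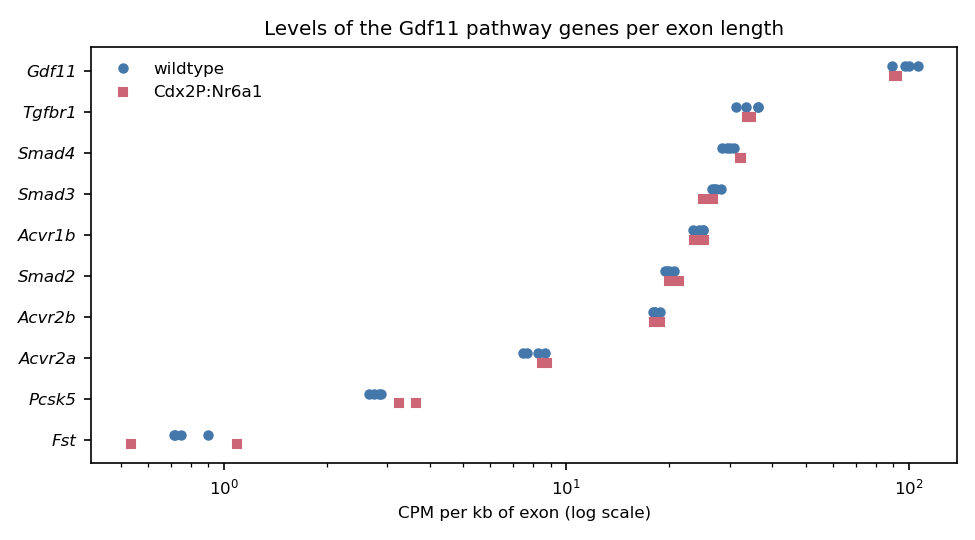
CPM per kb of exon (log scale) of the 10 genes in each wildtype (circles) and Cdx2P:Nr6a1 (squares) library, ordered by the wildtype mean. Gdf11 stands apart at the top at 98.2 CPM per kb in wildtype, and Fst is lowest at 0.772, with the Cdx2P:Nr6a1 libraries on either side.

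The remaining genes of the Smad2/3 branch were described from a list of 47, of which 33 passed the filter. Of the 33, 2 were called higher and 1 lower, all of them extracellular antagonists, beside 0.785% and 0.809% of all genes tested, and the median log2 fold change was 0.03. The Cdx2P:Nr6a1 values were wholly above those of wildtype for 6 of the 33 and wholly below for 3, where 10.1% and 8.48% of all genes tested were so placed.

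Wfikkn1 encodes a secreted protein that binds myostatin and Gdf11 and inhibits them. It was counted at 1.46, 2.04, 2.41 and 2.38 CPM in wildtype and at 4.27 and 4.79 CPM in Cdx2P:Nr6a1. Both Cdx2P:Nr6a1 embryos were above all wildtype embryos, and Wfikkn1 rose with a log2 fold change of 1.12 ± 0.20 (SE; adjusted p = 0.0272, edgeR quasi-likelihood test). The call was lost without wildtype replicate 2 (adjusted p = 0.0595), without Cdx2P:Nr6a1 replicate 1 (0.128) and without Cdx2P:Nr6a1 replicate 2 (0.192), within a range from 2.59e-08 to 0.192 over 15 alternatives.

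Lefty1 and Lefty2 encode closely related inhibitors of Nodal signalling, and they moved in opposite directions. Lefty1 was at 3.64, 2.92, 3.06 and 3.34 CPM in wildtype and at 5.01 and 6.21 CPM in Cdx2P:Nr6a1, and rose with a log2 fold change of 0.79 ± 0.14 (SE; adjusted p = 0.0312). Lefty2 was at 4.58, 4.49, 4.11 and 4.07 CPM in wildtype and at 2.50 and 2.49 CPM in Cdx2P:Nr6a1, with a log2 fold change of -0.80 ± 0.13 (SE; adjusted p = 0.0208). The groups did not overlap for either gene. Their transcripts share 197 stretches of read length, 11.7% of those of Lefty1 and 7.77% of those of Lefty2, so a part of the reads cannot be assigned to one of them with certainty.

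Both calls were lost with single embryos left out. For Lefty1 the adjusted p was 0.0654, 0.0941 and 0.0709 without wildtype replicate 2, 3 or 4 and 0.0740 and 0.272 without Cdx2P:Nr6a1 replicate 1 or 2, and it was 0.0600 with the replicate number as a block. For Lefty2 it was 0.0569 and 0.0513 without wildtype replicate 2 or 3 and 0.134 and 0.159 without Cdx2P:Nr6a1 replicate 1 or 2. With Y-linked expression as a covariate it was 0.0816 for Lefty1 and 0.0542 for Lefty2. Nodal itself was below the filter, at 0.14 to 0.59 CPM in wildtype and at 1.02 and 0.37 CPM in Cdx2P:Nr6a1.

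**Figure D4:**
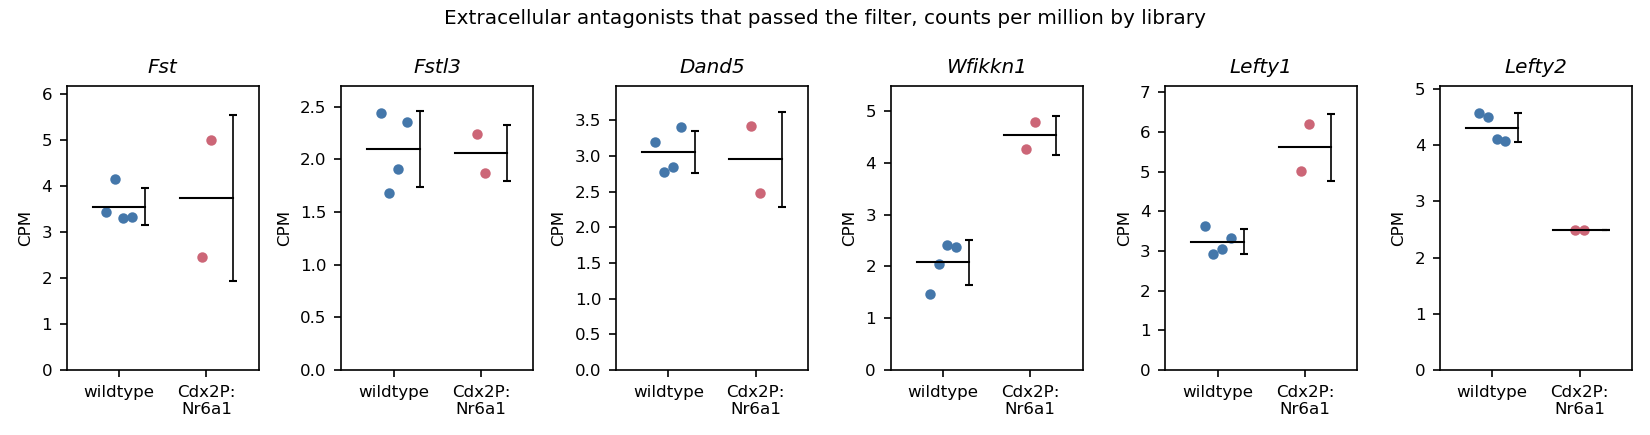
CPM of the 6 extracellular antagonists that passed the filter in each library (points), with group mean (line) and SD (bar), for 4 wildtype and 2 Cdx2P:Nr6a1 tailbuds on axes that start at 0. Wfikkn1 and Lefty1 are higher and Lefty2 is lower in both Cdx2P:Nr6a1 embryos, whereas Fst, Fstl3 and Dand5 overlap or straddle the wildtype values.

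In the other groups of the branch 0 genes were called. Of the 10 other genes listed under ligands 5 were tested, and the largest changes were those of Tgfb3 and of the inhibin subunit Inha (log2 fold change 0.19 ± 0.17). Tgfb3 was at 12.2 to 13.1 CPM in wildtype and 15.2 and 14.3 CPM in Cdx2P:Nr6a1 (log2 fold change 0.22 ± 0.09). Of the 5 other receptors and co-receptors 2 were tested, the co-receptor Tgfbr3 (log2 fold change 0.25 ± 0.13) and Tgfbr2 (-0.11 ± 0.11). Of the 10 Smad partners and regulators 9 were tested, and the largest values were -0.22 ± 0.07 for Nedd4l and 0.11 ± 0.09 for Smurf1, both ubiquitin ligases that act on this pathway. Nedd4l was at 28.0 to 32.3 CPM in wildtype and at 27.0 and 24.9 CPM in Cdx2P:Nr6a1, below all wildtype embryos.

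Known transcriptional targets of Smad2 and Smad3 were read as a readout separate from the components. Of the 9 listed 7 were tested, 0 were called, 5 were higher and 2 lower, and the median log2 fold change was 0.13. Tgif1, which encodes a corepressor of Smads, was at 117 to 137 CPM in wildtype and at 152 and 143 CPM in Cdx2P:Nr6a1 (0.21 ± 0.07). Both Cdx2P:Nr6a1 embryos lay above all wildtype embryos for Tgif1 (adjusted p = 0.209, edgeR quasi-likelihood test). So placed were 2 of the 7 targets, where 10.1% of all genes tested were. Wholly below wildtype lay 0 of the 7, where 8.48% of all genes tested did. The feedback inhibitor Smad7, a target fixed in the same list, was at 14.3 to 19.8 CPM in wildtype and at 20.3 and 18.3 CPM in Cdx2P:Nr6a1, with a log2 fold change of 0.13 ± 0.14.

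**Figure D5:**
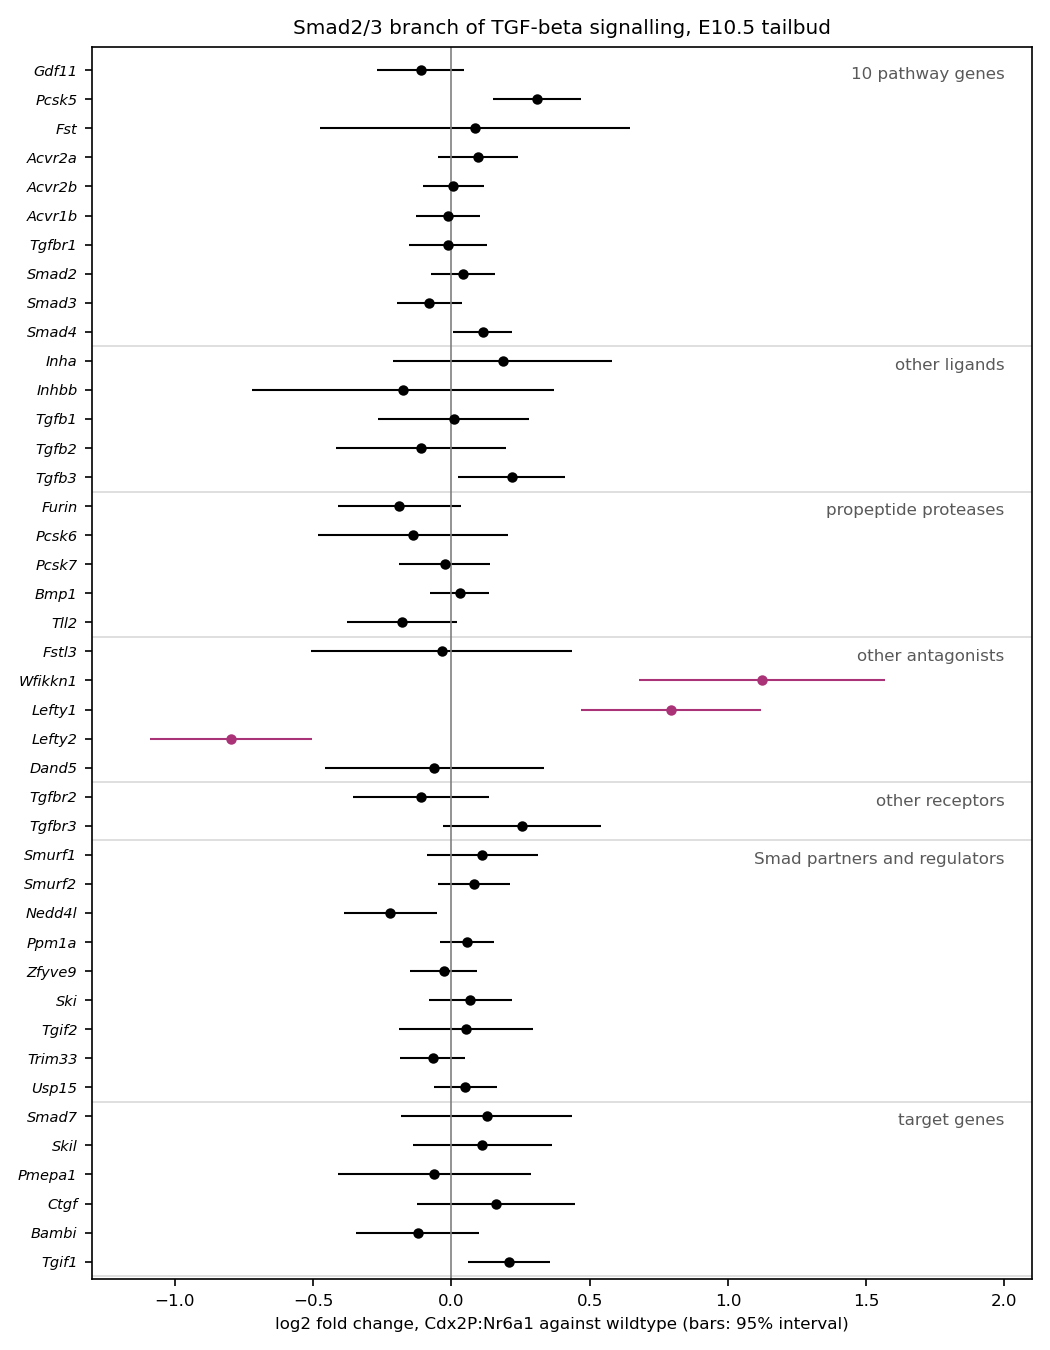
Log2 fold change of Cdx2P:Nr6a1 against wildtype with its 95% interval for the 10 pathway genes and for other genes of the Smad2/3 branch that passed the filter, all but 1 of the 33, grouped by role (coloured: adjusted p under 0.05). The 10 components lie between -0.11 and 0.31, and the 3 called genes are Wfikkn1 at 1.12, Lefty1 at 0.79 and Lefty2 at -0.80.

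The BMP branch of the family, which shares Smad4 and uses other receptors and Smads, was taken for comparison. Of its 8 genes 7 were tested, 0 were called, 1 was higher and 6 were lower, with a median log2 fold change of -0.08. Smad5, a receptor-regulated Smad of that branch, was at 265, 268, 273 and 266 CPM in wildtype and at 238 and 238 CPM in Cdx2P:Nr6a1, with a log2 fold change of -0.18 ± 0.04 (SE; adjusted p = 0.0835). The receptor gene Bmpr1b was at 7.95 to 8.74 CPM in wildtype and at 6.35 and 6.88 CPM in Cdx2P:Nr6a1 (-0.34 ± 0.10, adjusted p = 0.167). Both lay below all wildtype embryos, and whether the branches differ was not tested.

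Of 11 lists of cell type markers of the dissected tissue, 2 held a called gene. Of the 8 tailbud progenitor genes 6 were higher and 2 lower. Called higher were 2 of the 8, where 0.785% of all genes tested were, Cdx2 at 0.35 ± 0.07 and Cyp26a1 at 0.73 ± 0.13 in log2 fold change. In the neural tube list 1 of 3 tested was called, Sox1 at 1.77 ± 0.25, while Sox2 and Pax3 overlapped between genotypes. Sox1 was at 0.895 to 1.41 CPM in wildtype and at 2.95 and 5.09 CPM in Cdx2P:Nr6a1. It passed the filter of 2 CPM only through the group where it is high, so its call carries that limit. In the lists of presomitic mesoderm, somite, gut endoderm, notochord, surface ectoderm, ventral caudal mesenchyme, erythroid cells, endothelium and macrophages 0 genes were called. The summed level of the presomitic mesoderm markers was 1066 to 1174 CPM in wildtype and 1016 and 967 CPM in Cdx2P:Nr6a1, below all wildtype embryos. Of the 5 tested genes of this list 3 were lower and 2 higher. Wholly below wildtype lay 2 of the 5, where 8.48% of all genes tested did, Tbx6 (log2 fold change -0.26 ± 0.06) and Dll3 (-0.14 ± 0.04). The part of cell composition in the values of Pcsk5, Smad4, Wfikkn1, Lefty1 and Lefty2 was not tested.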

How the data were processed

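RNA was sequenced from 6 tailbuds, grouped by the genotype label into 4 wildtype and 2 Cdx2P:Nr6a1 embryos, from stranded mRNA libraries read single-end. The authors aligned the reads with STAR to mm10, per the labels, and deposited the raw count of each gene, not normalized. The counter and its use of strand are not given in the sources used here. A second deposited file holds the authors' own fold changes, p-values, CPM and counts of selected genes, and it was not used. No column belonged to other samples (0).

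The 10 genes and all lists were chosen with earlier results of these data known. CPM in the text used column totals, and CPM per kb the exon length given with the counts. Of 182 exons of the 10 genes, 179 (98.4%) were in GENCODE M21 on GRCm38. In R 4.3.3, edgeR 4.0.16 (TMM, quasi-likelihood test, Benjamini-Hochberg over 12733 genes) compared the genotypes, with 95% intervals from the t distribution. The biological coefficient of variation was 9.40%. The code was tested on simulated data. Ratios were compared by exact permutation over 15 arrangements. Alternatives used limma 3.58.1 and DESeq2 1.42.0. Plots were made in matplotlib 3.10.9 under Python 3.11.15.

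The genes named were the 10 components, Nr6a1, called genes of each list, the 2 tested genes with the largest fold change in each pathway sublist (1 of which is not reported here), genes whose exons overlap those of a component, and the 3 profiles nearest to Gdf11. Other genes, namely those given for a share or a level (Tgfb2, Pcsk6, Pcsk7, Mstn, Gdf1, Acvr1c, Nodal, Smad7, T, Olig2, Sox2, Pax3, Tbx6, Dll3, Fstl3 and Dand5), were added after values were seen.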

Additional observations from a re-analysis of the deposited data

How the results depend on the processing

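Over 15 alternatives to the edgeR quasi-likelihood fit, the 150 fold changes of the 10 genes kept their sign and side of the threshold in 133, and 3, all of Pcsk5, were called only there. The sign changed in 14, of Fst, Acvr2b, Acvr1b, Tgfbr1 and Smad2. For Fst the log2 fold change was -0.046 with Y-linked expression as a covariate and -0.087 with the replicate block, for Acvr2b it was -0.0028 with the filterByExpr filter and -0.014 with the replicate block, and for Tgfbr1 it was 0.069 with the replicate block. With each library left out in turn it ran from -0.54 to 0.50 for Fst, -0.029 to 0.043 for Acvr2b, -0.052 to 0.027 for Acvr1b, -0.057 to 0.0076 for Tgfbr1 and -0.014 to 0.093 for Smad2, and without a change of sign from -0.14 to -0.023 for Smad3 and from 0.063 to 0.13 for Acvr2a. With the replicate block it was 0.18 for Acvr2a and -0.18 for Gdf11, neither of them called. With a library left out the log2 ratio differences ran from -0.050 to 0.055 for Acvr1b to Tgfbr1, from -0.15 to -0.037 for Acvr2b to Acvr2a and from -0.59 to 0.41 for Gdf11 to Fst.

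The number of the 10 genes called was 1 in place of 0 under the likelihood ratio test, DESeq2 and no filter on low counts, and 0 with each library left out. The number of the 10 whose groups did not overlap was 2, also with TMM library sizes, which were chosen after seeing the data. It was 2 to 6 with a library left out, namely 4 when Cdx2P:Nr6a1 replicate 1 was left out and 6 when replicate 2 was. In those 2 settings only 1 Cdx2P:Nr6a1 value has to lie outside the wildtype range, which is a weaker condition. The share over all genes was not counted with a library left out, so these counts say nothing particular to the 10 genes. The number called among other Smad2/3 branch genes was 3, and 6 without a filter, 1 with Y-linked expression as a covariate and 0 to 3 with a library left out, with 0 without wildtype replicate 2 or either Cdx2P:Nr6a1 library and 1 without wildtype replicate 3. For the BMP branch it was 1 under DESeq2 and without a filter. Of all genes 203 were called, and 401 under the likelihood ratio test, 477 under DESeq2, 876 without a filter, 442 with the replicate block and 61 to 175 with a library left out, with 61 without either Cdx2P:Nr6a1 library and 134 without wildtype replicate 4. The cause of these shifts was not tested. With 1 Cdx2P:Nr6a1 library left, that library is assumed to vary like wildtype.

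The replicate block joined samples that share only a number given in accession order. Deviations of Cdx2P:Nr6a1 replicate 1 correlated at 0.205 with those of wildtype replicate 1, and those of replicate 2 at -0.151 with wildtype replicate 2. The largest correlation was 0.314, between Cdx2P:Nr6a1 replicate 2 and wildtype replicate 3. Deviations of 2 libraries from their mean mirror each other, so the 2 had opposite signs against any wildtype library. These values therefore cannot decide on pairing, and none was used because the labels give none. The block changed no call among the 10 genes. Precision was limited by 2 Cdx2P:Nr6a1 embryos for all genes and by 108 to 336 reads for Fst.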
